A study of Mus musculus with 2 samples.

Results

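The genes described here are the subunits and assembly factors of respiratory complex I, taken as every row of the deposited mouse gene table whose symbol begins with Nduf. The rule uses the symbol alone, and it found 42 of the 23337 rows. Of these, 36 code for subunits of the complex and 4 (Ndufaf1, Ndufaf2, Ndufaf3 and Ndufaf4) for assembly factors. The remaining pair, Ndufa4 and its paralog Ndufa4l2, carries the Nduf name, but Ndufa4 is now placed in complex IV. The 42 genes lie on 16 chromosomes.

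RNA was measured in regulatory T (Treg) cells of skeletal muscle, in 1 library from mice given recombinant IL-33 and 1 library from mice given PBS, the vehicle. All mice were 8-week-old males on a Foxp3-IRES-GFP/C57BL/6 background, in which GFP reports the Treg factor Foxp3. Tibialis anterior, quadriceps and gastrocnemius were injured with cardiotoxin, a snake venom toxin that kills muscle fibres, and 0.3 µg of rIL-33 or PBS was also given into the muscle; the cells were taken 4 days after injury. The PBS mice were thus injured as well, and uninjured muscle was not analysed here. Each library came from 5000 sorted cells, and the labels do not say how many mice gave them. With 1 library per treatment there was no replicate check and no test, and every interval below is an exact 95% interval that covers counting error only.

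Complex I, or NADH:ubiquinone oxidoreductase, passes electrons from NADH to ubiquinone and pumps protons across the inner mitochondrial membrane. Its peripheral arm holds an N module, where NADH is oxidised, and a Q module, where ubiquinone is reduced. Its membrane arm has a proximal and a distal part. The core subunits do the chemistry and the pumping, the supernumerary subunits surround them, and assembly factors help to build the complex but are not part of it. The core subunits of the membrane arm are coded by mitochondrial DNA and were not analysed here. In Treg cells, oxidative metabolism is known to support suppressive function.

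Promoter sequence is shown first for the members that passed 2-fold upward after IL-33 and whose window held a match to 1 of 3 motifs. The motifs belong to factors known for control of nuclear genes of the respiratory chain: NRF1 (GCGCA and GCGC with any 1 base between them), GABPA (CCGGAAG) and YY1 (AANATGGCG). Each window runs 5′ to 3′ from 100 bases before the RefSeq transcript start, on GRCm38.p6, and capitals mark the match. They are Ndufaf1 (GABPA, chr2:119662805-119662934, minus strand), Ndufc1 (YY1, chr3:51408925-51409055, minus strand), Ndufa5 (NRF1, chr6:24527661-24527790, minus strand) and Ndufs7 (YY1, chr10:80249349-80249481, plus strand).
Ndufaf1: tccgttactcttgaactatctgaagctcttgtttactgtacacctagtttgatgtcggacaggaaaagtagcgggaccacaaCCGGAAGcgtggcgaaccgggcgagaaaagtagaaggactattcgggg
Ndufc1: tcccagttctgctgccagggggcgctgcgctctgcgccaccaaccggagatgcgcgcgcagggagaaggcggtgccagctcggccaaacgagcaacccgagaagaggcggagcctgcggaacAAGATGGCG
Ndufa5: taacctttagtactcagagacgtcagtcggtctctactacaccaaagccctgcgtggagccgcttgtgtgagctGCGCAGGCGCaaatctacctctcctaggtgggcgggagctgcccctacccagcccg
Ndufs7: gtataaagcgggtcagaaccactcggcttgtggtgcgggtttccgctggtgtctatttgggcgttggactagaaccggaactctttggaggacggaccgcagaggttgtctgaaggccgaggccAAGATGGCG

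A match describes the letters and is neither a bound site nor a cause. The YY1 matches begin after the transcript start, at base 23 in Ndufc1 and at base 25 in Ndufs7. Those shown for Ndufaf1 and Ndufa5 begin before it. For Ndufs7, Ndufa5 and Ndufc1 the RefSeq start used lies inside the gene range given below. The search covered both strands of the window from 250 bases before to 50 bases after the start, and 37 of the 42 members had such a window. The NRF1 motif was found in 8 of the 37 members (21.6%), against 12.8% of the 6525 genes that had a window and were over the expression floor given below, and 4.6% of all 32851 promoters. The YY1 motif was found in 7 members (18.9%), against 7.05% of genes over the floor and 2.38% of all promoters. The GABPA motif was found in 5 members (13.5%), against 23.2% of genes over the floor and 8.86% of all promoters. At least 1 of the 3 motifs was present in 19 members (51.4%), 37.3% of genes over the floor and 14.2% of all promoters. Members with NRF1 matches included Ndufa6, Ndufa8, Ndufa11 and Ndufb4, whose levels in the libraries differed by less than 2-fold. Besides Ndufaf1, GABPA matches lay in Ndufb6, which was lower after IL-33, and in Ndufb7, Ndufs3 and Ndufs8, which were within 2-fold.

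The library totals were 4080791 counts after IL-33 and 1573707 counts after PBS, a ratio of 2.59. Levels are given as CPM, the count divided by the library total and scaled to a sum of 1000000, so that 1 count was worth 0.245 CPM after IL-33 and 0.635 CPM after PBS. A gene at 0 counts could have been present at up to 0.735 CPM after IL-33 or 1.91 CPM after PBS, taking a limit of 3 counts. The expression floor was 5 CPM, reached in either library by 9005 genes. The log2 fold was taken as IL-33 over PBS after adding 1 CPM to each level, which understates differences of low genes, and a gene is called higher or lower only at 2-fold or more. By this measure 15.5% of the 9005 genes were higher and 16.3% were lower after IL-33, and their median log2 fold was -0.08. Scaling by edgeR's TMM factors in place of the total shifted the log2 ratio of CPM by 0.12, and DESeq2's size factors by 0.11; with 1 CPM added, the shift was smaller for low genes. Of the genes called, the higher ones made up 48.8% with the library total, 56.3% with TMM and 55.7% with DESeq2 factors.

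The labelled cell type was checked against its markers. Of 8 Treg markers 7 were within 2-fold, Ctla4 among them at 6186 CPM after IL-33 and 6246 CPM after PBS, and Foxp3 had 40 counts after IL-33 and 1 after PBS. Muscle fibres are rich in complex I, so their markers bear on the levels below: 12 fibre markers summed to 22 counts (5.39 CPM) after IL-33 and 16 counts (10.2 CPM) after PBS, with Ckm and Mb at 0 in both. The 5 fibroblast markers summed to 0 counts after IL-33 and 104 counts (66.1 CPM) after PBS, and 7 macrophage and monocyte markers to 151 counts (37.0 CPM) after IL-33 and 77 counts (48.9 CPM) after PBS. Within the macrophage and monocyte list, Lyz2 had a ratio of 0.493 and Itgam of 2.12. Endothelial markers summed to 201 counts (49.3 CPM) after IL-33 and 82 counts (52.1 CPM) after PBS. Pecam1 gave 198 of these counts after IL-33 and 71 after PBS. Cdh5 had 3 counts after IL-33 and 11 after PBS, and Kdr had 0 in both. B cell markers summed to 11 counts (2.70 CPM) after IL-33 and 5 counts (3.18 CPM) after PBS. CD8 T and NK cell markers summed to 88 counts (21.6 CPM) after IL-33 and 21 counts (13.3 CPM) after PBS. All of these were Cd8b1, with Cd8a and Ncr1 at 0. The part that these cells, or the difference in depth, had in the results below was not tested. In bulk RNA such as this, fewer cells of a type and less RNA per cell cannot be told apart.

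Complex I subunits were expressed throughout, at 21.6 to 249.5 CPM after IL-33 and 8.26 to 229 CPM after PBS over the 35 of 36 subunits that passed the floor. The exception was Ndufs5, with 0 counts in both libraries. Together the subunits took 3641 CPM (14860 counts) after IL-33 and 3011 CPM (4738 counts) after PBS, a ratio of 1.21 (1.17 to 1.25). Of the 35 subunits, 8 were higher (22.9%, against 15.5% of all genes), 1 was lower (against 16.3% of all genes) and 26 were within 2-fold. Their median log2 fold was 0.23, against -0.08 over all 9005 genes, and 20 of them lay above 0 and 15 below. The counting interval lay wholly above 1 for 17 subunits (48.6%) and wholly below 1 for 6 (17.1%). Among all genes over the floor these shares were 28.6% and 35.1%. Most genes that pass 2-fold have low counts: among the 3566 genes with a mean of at least 50 CPM, 3.53% were higher and 4.96% lower, and 4 of the 26 subunits at that level were higher and 0 were lower. The median log2 fold of these 26 was 0.06, with 13 above 0 and 13 below. The 4 higher ones (Ndufa2, Ndufa5, Ndufc1 and Ndufb3) have short transcripts, in the shortest of 10 length groups of genes, where 8.79% of the 421 genes at that level were higher.

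**Figure D1:**
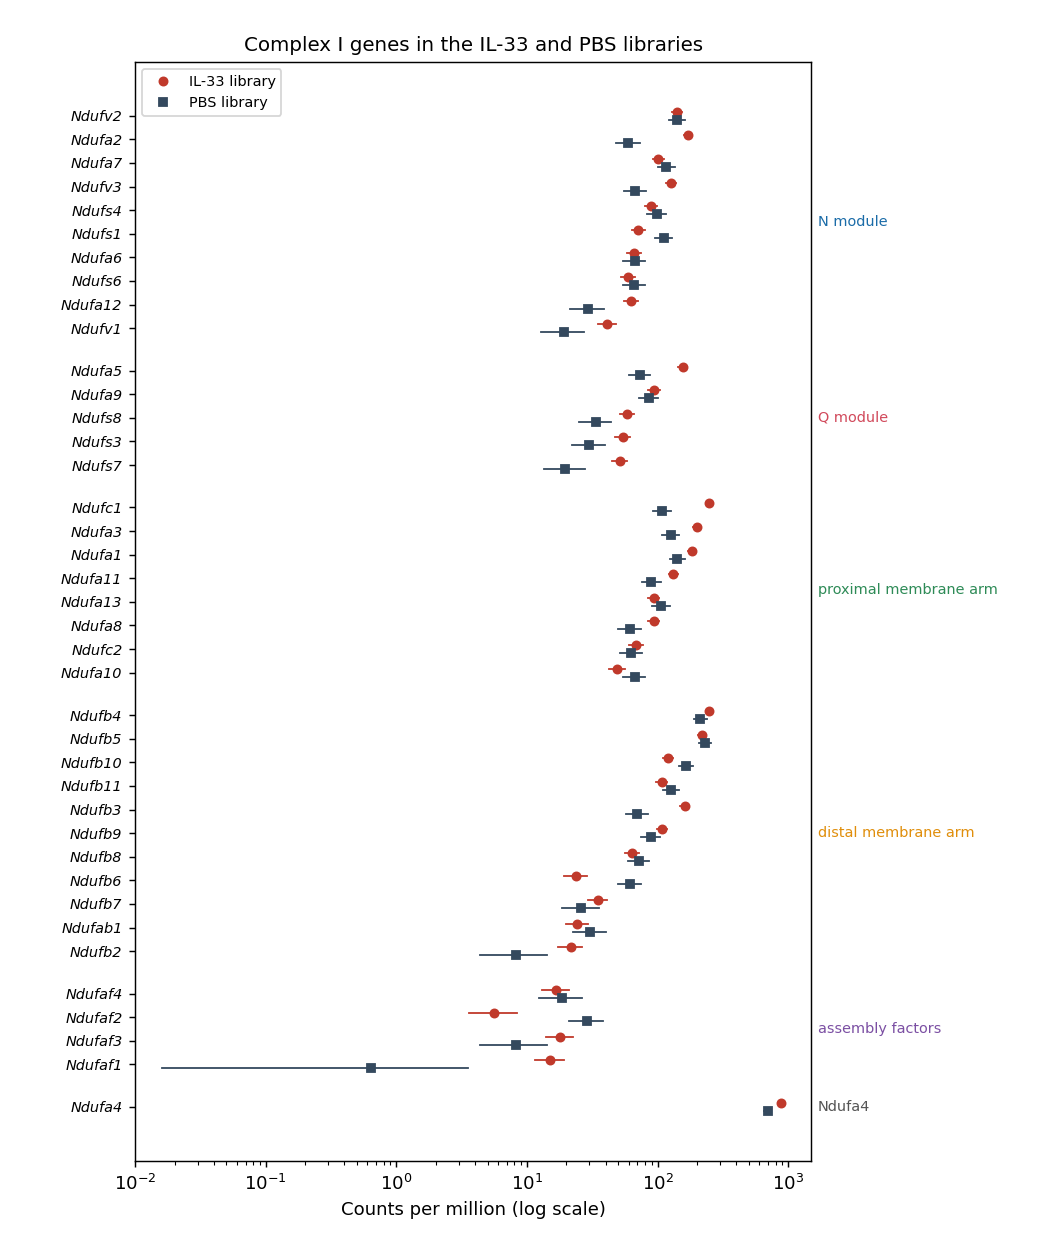
Level of complex I genes over the floor in CPM (log axis) in the IL-33 and the PBS library, by part of the complex, 1 library per treatment. Ndufa4 stands above all others at 878.5 CPM after IL-33 and 694.5 CPM after PBS, the subunits lie between 8.26 and 249.5 CPM, and the assembly factors lie between 0.635 and 28.6 CPM.

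The N module, which takes up NADH, held 10 genes, of which 3 were higher, 0 lower and 7 within 2-fold. Of all genes over the floor, 15.5% were higher and 16.3% lower. Ndufa2, a supernumerary subunit with a thioredoxin-like fold, had 696 counts (171 CPM) after IL-33 and 94 counts (59.7 CPM) after PBS, a ratio of 2.86 (2.30 to 3.58). This was the widest upward difference of any subunit, with a log2 fold of 1.498; the gene lies at chr18:36742332-36744557 on mm10. Ndufv1, the core subunit that binds NADH and the flavin FMN, had 167 counts (40.9 CPM) after IL-33 and 30 counts (19.1 CPM) after PBS, a ratio of 2.15 (1.45 to 3.28). Ndufa12, which sits where the N and Q modules meet, had 255 counts (62.5 CPM) after IL-33 and 46 counts (29.2 CPM) after PBS, a ratio of 2.14 (1.56 to 2.99). Both passed 2-fold narrowly, at log2 folds of 1.06 for Ndufv1 and 1.07 for Ndufa12.

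The other core subunits of the N module, both iron-sulfur proteins, did not follow Ndufv1. Ndufv2, which works beside Ndufv1 and had the highest mean CPM of the N module, had 575 counts (141 CPM) after IL-33 and 222 counts (141 CPM) after PBS, a ratio of 0.999 (0.854 to 1.17). Ndufs1, which carries several of the clusters that electrons cross, had 291 counts (71.3 CPM) after IL-33 and 176 counts (112 CPM) after PBS, a ratio of 0.638 (0.527 to 0.773). Its interval lay below 1, though within 2-fold. Among the supernumerary genes, Ndufv3 had 126 CPM after IL-33 and 67.4 CPM after PBS, a ratio of 1.88 (1.52 to 2.34), and Ndufs4, Ndufs6, Ndufa6 and Ndufa7 had ratios from 0.863 for Ndufa7 to 0.988 for Ndufa6. The module's summed level was 928.3 CPM after IL-33 and 776.5 CPM after PBS, a ratio of 1.195 (1.12 to 1.28), while its median log2 fold was -0.01, and 0.11 with TMM scaling, so its sign depends on the scaling.

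The Q module hands the electrons to ubiquinone. Of its 6 genes 2 were higher (33.3%) and 0 lower, against 15.5% and 16.3% of all genes. The module's median log2 fold of 0.80 was the largest of the 4 structural groups under library-total, TMM and DESeq2 scaling. Ndufs7, the core subunit with the last iron-sulfur cluster before ubiquinone, had 209 counts (51.2 CPM) after IL-33 and 31 counts (19.7 CPM) after PBS, a ratio of 2.60 (1.78 to 3.92). It lies at chr10:80249121-80256794 on the plus strand, and its promoter window holds the YY1 match shown above, after the transcript start. Ndufa5, a supernumerary subunit of this module with its highest CPM after IL-33, had 633 counts (155 CPM) after IL-33 and 115 counts (73.1 CPM) after PBS, a ratio of 2.12 (1.74 to 2.61). The gene lies at chr6:24518666-24528013 on the minus strand.

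The other genes of the Q module were within 2-fold. Ndufs8, a core subunit that holds a pair of iron-sulfur clusters, had 238 counts (58.3 CPM) after IL-33 and 53 counts (33.7 CPM) after PBS, a ratio of 1.73 (1.28 to 2.38). Ndufs3, also a core subunit, had 220 counts (53.9 CPM) after IL-33 and 47 counts (29.9 CPM) after PBS, a ratio of 1.81 (1.31 to 2.53). Ndufa9, at the foot of the module, had 93.6 CPM after IL-33 and 85.8 CPM after PBS, a ratio of 1.09 (0.894 to 1.34).

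The proximal membrane arm had 1 higher gene (12.5%) and 0 lower among the 8 over the floor, against 15.5% and 16.3% of all genes. Ndufc1, a small supernumerary subunit, had 1017 counts (249.2 CPM) after IL-33 and 171 counts (109 CPM) after PBS, a ratio of 2.29 (1.95 to 2.71). The gene is at chr3:51404677-51408988 on the minus strand, and its transcript of 315 nt is the shortest of any subunit measured. Ndufa1, Ndufa3, Ndufa8 and Ndufa11 also had intervals above 1 but ratios under 2-fold, from 1.30 for Ndufa1 to 1.59 for Ndufa3. Ndufa1 had the highest CPM of the group after PBS, at 184 CPM after IL-33 and 142 CPM after PBS. Ndufa10 had 49.3 CPM after IL-33 and 66.7 CPM after PBS, a ratio of 0.738 (0.580 to 0.944). The intervals of Ndufc2 and of Ndufa13, which is also known as the cell death regulator GRIM-19, held 1. The arm summed to 1069 CPM after IL-33 and 763.8 CPM after PBS, a ratio of 1.40 (1.31 to 1.49), with a median log2 fold of 0.46.

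The distal membrane arm was the only structural part with calls in both directions. It had 2 genes higher (18.2%, against 15.5% of all genes), 1 lower (against 16.3% of all genes) and 8 within 2-fold. Ndufb3 had 656 counts (161 CPM) after IL-33 and 110 counts (69.9 CPM) after PBS, a ratio of 2.30 (1.88 to 2.84); it lies at chr1:58586384-58595964 on the plus strand. Ndufb2, at chr6:39592574-39603382 on the plus strand, had 88 counts (21.6 CPM) after IL-33 and 13 counts (8.26 CPM) after PBS, a ratio of 2.61 (1.45 to 5.10). Its interval is wide because the PBS library held so few counts. Ndufb6 was the lower one, with 96 counts in each library, which is 23.5 CPM after IL-33 and 61.0 CPM after PBS, a ratio of 0.386 (0.288 to 0.517). It lies at chr4:40270591-40279421 on the minus strand.

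The genes with the highest CPM of the distal arm were within 2-fold. Ndufb4 had 1018 counts (249.5 CPM) after IL-33 and 335 counts (213 CPM) after PBS, a ratio of 1.17 (1.03 to 1.33). Ndufb5 had 894 counts (219 CPM) after IL-33 and 361 counts (229 CPM) after PBS, a ratio of 0.955 (0.844 to 1.08). Ndufb10 and Ndufb11 had intervals below 1, with ratios of 0.723 for Ndufb10 and 0.840 for Ndufb11. The intervals of Ndufb7, Ndufb8 and Ndufab1, the acyl carrier protein that also serves mitochondrial fatty acid synthesis, held 1. The summed level of the distal arm was 1132 CPM after IL-33 and 1092 CPM after PBS, a ratio of 1.04 (0.981 to 1.10). Its median log2 fold was -0.07, and 0.05 with TMM scaling, so its sign also depends on the scaling. The distal arm made up 31.1% of subunit counts after IL-33 and 36.3% after PBS, and the proximal arm made up 29.3% after IL-33 and 25.4% after PBS.

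**Figure D2:**
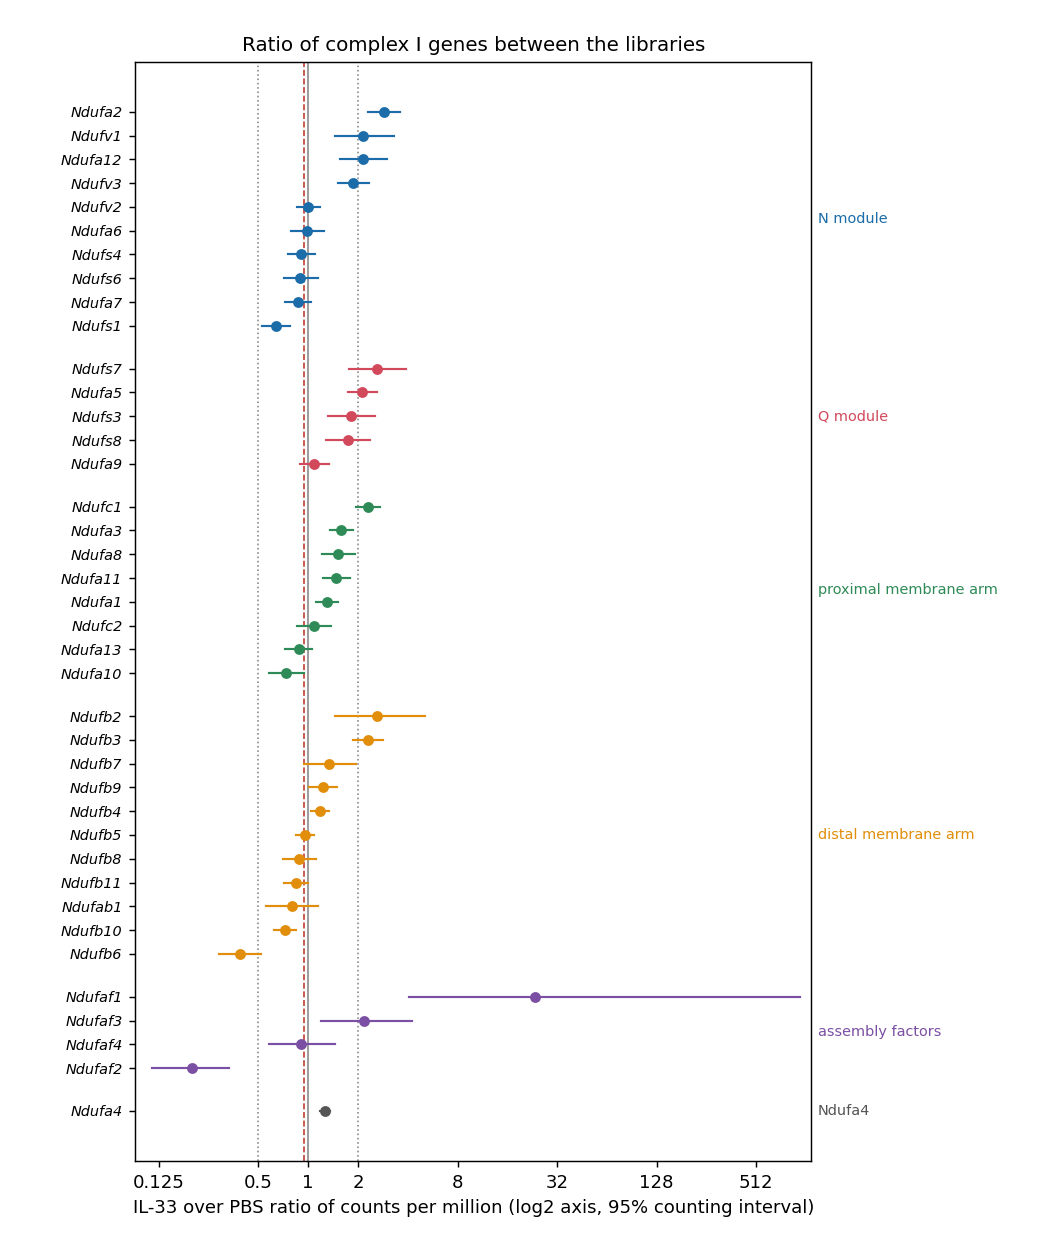
Ratio of CPM, IL-33 over PBS (log axis), for complex I genes over the floor, with the exact 95% counting interval as a bar, by part of the complex; dotted lines mark 2-fold and the dashed line the median of all genes over the floor. Ndufaf1 lies far to the right at 23.5, with an interval from 4.07 to 944, Ndufaf2 lies lowest at 0.197, and the subunits lie between 0.386 and 2.86.

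Of the 7 core subunits 2 were higher (28.6%) and 0 lower, against 15.5% and 16.3% of all genes. Their median log2 fold was 0.77 but their summed ratio was 1.05 (0.967 to 1.14). Ndufv2 and Ndufs1 had more counts than Ndufv1, Ndufs3, Ndufs7 and Ndufs8 and ratios under 1, while those 4 had ratios of 1.73 or more. The 28 supernumerary genes summed to 3125 CPM after IL-33 and 2519 CPM after PBS, a ratio of 1.24 (1.197 to 1.29). Among them 6 were higher (21.4%) and 1 lower, against the same shares of all genes, and their median log2 fold was 0.18.

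Levels between genes can be compared only per length of transcript. Per kilobase, Ndufa4 led with 1944 CPM per kb after IL-33 and 1537 CPM per kb after PBS. Ndufc1 came next, with 791 CPM per kb after IL-33 and 345 CPM per kb after PBS, ahead of Ndufa1 with 438 CPM per kb after IL-33 and 338 CPM per kb after PBS. By the mean of both libraries Ndufv1 was the lowest subunit over the floor, with 24.6 CPM per kb after IL-33 and 11.5 CPM per kb after PBS. Below it by that mean came Ndufaf3, Ndufaf1 and then Ndufaf4, which had 4.59 CPM per kb after IL-33 and 5.07 CPM per kb after PBS.

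Subunit transcripts are short, and the log2 fold of all genes varied with transcript length. The subunits had a median length of 861 nt (315 to 2590 nt), against 2827 nt for the 8915 genes over the floor with a length, and when all genes were cut into 10 equal groups by length, 33 of the 35 fell in the shortest 3. In the shortest group (86 to 1109 nt) the median log2 fold was 0.16, and 16.9% were higher. In the longest group the median was -0.19 and 11.4% were higher. The counting interval lay wholly above 1 for 40.9% of genes in the shortest group and 23.1% in the longest. The 24 subunits of the shortest group had a median log2 fold of 0.39, and 15 of them lay above the median of that group. In all, 20 of the 35 subunits lay above the median of genes of their own length, and their median log2 fold after subtracting it was 0.08. The higher Ndufa5 passed below 2-fold with this subtraction, while the other 7 higher subunits and the lower Ndufb6 kept their calls. Ndufv1 and Ndufa12 came within 2-fold with a pseudocount of 5 CPM.

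**Figure D3:**
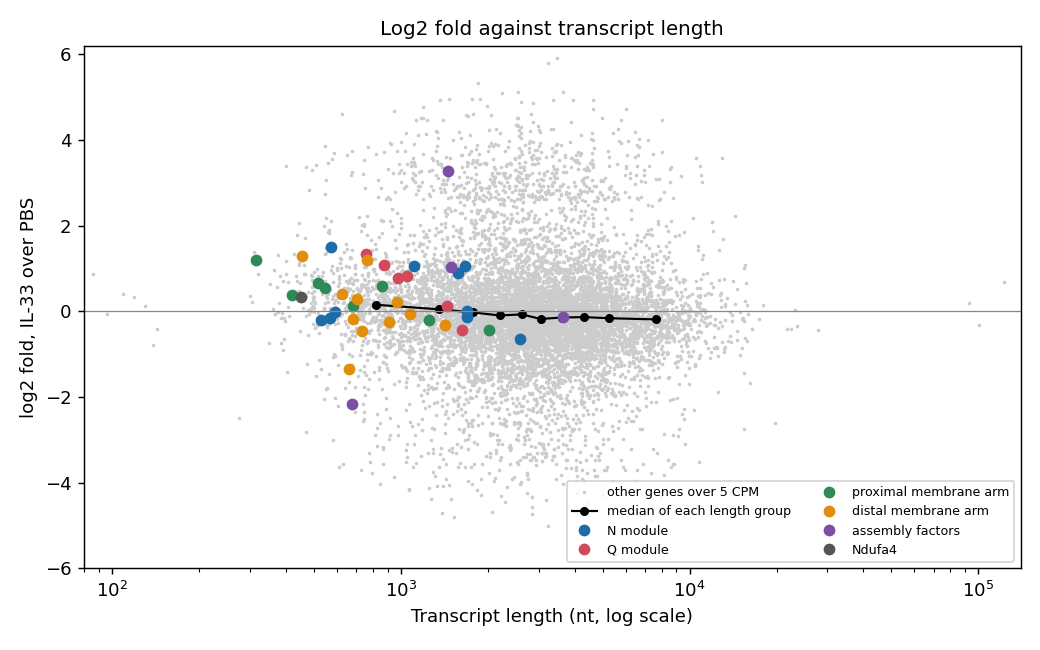
Log2 fold, IL-33 over PBS, against transcript length in nt (log axis) for complex I genes, drawn over all genes over the floor and the median of each of 10 length groups. Most subunits sit at the short end, where the median of all genes is 0.16, and they spread on both sides of it.

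With reads of 25 bp, genes that share sequence with copies elsewhere may have lost or gained counts, and how such reads were treated is not given in the sources used here. Of the 36 subunits, 16 shared less than 5% of their 25-base stretches with another gene's transcripts. These 16 had a summed ratio of 1.25 (1.19 to 1.32) and a median log2 fold of 0.39, with 3 higher (Ndufv1, Ndufs7 and Ndufa5) and 0 lower. The 19 others over the floor had a ratio of 1.18 (1.13 to 1.23) and a median of -0.07, with 5 higher (26.3%) and 1 lower. The share called higher was 18.8% for the 16 genes and 15.5% for all genes over the floor, of which 16.3% were lower. Ndufs3, for instance, shared 61.5% and Ndufb4 38.7%, so their values are uncertain. Ndufs5, listed at 0 in both libraries, shared 42.8% with BC002163, which had 27 counts after IL-33 and 5 after PBS.

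Overlapping genes add further uncertainty, since the use of strand in counting is not known. Ndufb6, the lower subunit, has 39.0% of its exon bases covered by Smim27 (listed as 2010003O02Rik) on the opposite strand, which had 19 counts after IL-33 and 0 after PBS. Ndufa2 overlaps exons of Tmco6 over 66 nt (11.5%), and Tmco6 had 59 counts after IL-33 and 2 after PBS, a ratio of 11.4 (3.01 to 96.1). Ndufa13 is covered over 29.98% by Tssk6, which had 0 counts in both libraries.

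Complex I genes often shared a start region with a neighbour on the other strand. A protein-coding gene began within 1000 nt in the opposite direction for 12 of the 42 members (28.6%), against 11.8% of the 8699 coding genes over the floor. The ratios of these neighbours lay on both sides of those of their members. Fam126b, 61 nt from the higher Ndufb3, had 116 counts after IL-33 and 16 after PBS, a ratio of 2.80 (1.65 to 5.05). Ik, 99 nt from the higher Ndufa2, had 552 counts after IL-33 and 247 after PBS, a ratio of 0.862 (0.740 to 1.005). Rps28, a ribosomal protein gene 10 nt from Ndufa7, had a ratio of 1.77 (1.56 to 2.02), while Ndufa7 itself had 0.863.

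The 4 assembly factors had low counts and the widest range of ratios. Ndufaf1, part of the complex that assembles the membrane arm, had 61 counts (14.9 CPM) after IL-33 and 1 count (0.635 CPM) after PBS, a ratio of 23.5 (4.07 to 944). It lies at chr2:119655446-119662827, and its promoter holds the GABPA match shown above. Ndufaf2, a paralog of Ndufa12 that in human cells holds its place during assembly, had 23 counts (5.64 CPM) after IL-33 and 45 counts (28.6 CPM) after PBS, a ratio of 0.197 (0.114 to 0.333). The gene, at chr13:108002715-108158623 on the minus strand, has 65.7% of its exon bases covered by a long noncoding RNA gene on the opposite strand, B230220B15Rik. Its paralog Ndufa12 was higher, so the pair differed in opposite directions.

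Ndufaf3 and Ndufaf4 act together on the Q module. Ndufaf3, at chr9:108565537-108567434, had 73 counts (17.9 CPM) after IL-33 and 13 counts (8.26 CPM) after PBS, a ratio of 2.17 (1.19 to 4.26). Ndufaf4 had 68 counts (16.7 CPM) after IL-33 and 29 counts (18.4 CPM) after PBS, a ratio of 0.904 (0.577 to 1.45). In sum the assembly factors were at 55.1 CPM after IL-33 and 55.9 CPM after PBS, a ratio of 0.986 (0.767 to 1.28), with 2 higher, 1 lower and 1 within 2-fold. Ndufaf3 was within 2-fold with a pseudocount of 5 CPM or after the length subtraction. The median log2 fold of the 4 was 0.45.

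Further assembly factors of the same name are listed in the table under older symbols. Ndufaf7, a mitochondrial methyltransferase, had 331 counts (81.1 CPM) after IL-33 and 29 counts (18.4 CPM) after PBS, a ratio of 4.40 (3.01 to 6.68). Ndufaf5, which hydroxylates Ndufs7 in human cells, had 100 counts (24.5 CPM) after IL-33 and 72 counts (45.8 CPM) after PBS, a ratio of 0.536 (0.392 to 0.736). Ndufaf8, which stabilises Ndufaf5 in human cells, had 1 count after IL-33 and 21 after PBS, a ratio of 0.0184 (0.000444 to 0.114). Ndufaf7 was higher and Ndufaf8 lower, while Ndufaf5 was within 2-fold with its interval below 1. Ndufaf6 had 0 counts in both libraries. With Ndufaf5, Ndufaf7 and Ndufaf8 added, the median log2 fold of the assembly factors was -0.14 and their summed ratio 1.21, so the sides of 0 and 1 on which they lie depend on which genes are taken.

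Ndufa4 had the most counts of any Nduf row. It had 3585 counts (878.5 CPM) after IL-33 and 1093 counts (694.5 CPM) after PBS, a ratio of 1.26 (1.18 to 1.35), within 2-fold. Ndufa4l2, its paralog known to be induced in low oxygen, had 0 counts in both libraries.

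Assembly factors without the Nduf name were also mixed: of 11 over the floor 3 were higher (27.3%) and 2 lower, against 15.5% and 16.3% of all genes. Their median log2 fold was -0.14. Foxred1 had 93 counts after IL-33 and 17 after PBS, a ratio of 2.11 (1.25 to 3.78). Lyrm2 had 153 counts after IL-33 and 17 after PBS, a ratio of 3.47 (2.10 to 6.11), and Dmac1 had 58 counts after IL-33 and 1 after PBS, a ratio of 22.4 (3.86 to 898). Of the known partners of Ndufaf1 in membrane arm assembly, Ecsit and Tmem126b were lower, while Acad9 had a ratio of 1.02 (0.643 to 1.67) and Timmdc1 and Tmem186 were within 2-fold. Ecsit had 8 counts after IL-33 and 22 after PBS, a ratio of 0.140 (0.0540 to 0.327). Tmem126b had 34 counts after IL-33 and 28 after PBS, a ratio of 0.468 (0.276 to 0.802).

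Of 6 regulators of mitochondrial biogenesis over the floor 2 were higher (33.3%) and 0 lower, against 15.5% and 16.3% of all genes. Gabpa, a subunit of the factor that binds the GABPA motif, had 383 counts after IL-33 and 72 after PBS, a ratio of 2.05 (1.59 to 2.68). Pprc1, a coactivator related to PGC-1, had 43 counts after IL-33 and 6 after PBS, a ratio of 2.76 (1.17 to 7.95). Nrf1 had 221 counts after IL-33 and 114 after PBS, a ratio of 0.748 (0.594 to 0.946), within 2-fold. Yy1, which codes for the third motif's factor, had 546 counts after IL-33 and 219 after PBS, a ratio of 0.961 (0.820 to 1.13). Tfam had a ratio of 1.04 (0.842 to 1.28) and Ppargc1b of 0.887 (0.406 to 2.09). Ppargc1a, which codes for PGC-1α, had 0 counts in both libraries. Esrra, also under the floor, had 17 counts (4.17 CPM) after IL-33 and 0 after PBS.

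The nuclear subunits of complexes II to V had the same summed ratio as those of complex I to the digits given. Over 39 genes over the floor, 2 were higher (5.13%) and 0 lower, against 15.5% and 16.3% of all genes. Their median log2 fold was 0.39 and their summed ratio was 1.21 (1.19 to 1.23). The 2 higher ones, both in complex IV, were Cox6b1 with a ratio of 2.02 (1.75 to 2.33) and Cox7a2 with 2.07 (1.79 to 2.39). Within these complexes the summed ratio was 1.03 for complex II, 1.42 for complex III, 1.33 for complex IV and 1.15 for complex V. Of the rows that begin with these symbols but code for no subunit, Cox4nb and Atp5s were left out after their values had been seen. With these 2 rows, 3 of 41 genes were higher and 1 lower. Atp5sl, the older name of the assembly factor Dmac2, was also left out. It had 8 counts after IL-33 and 6 after PBS, under the floor. Cox7a2l was kept in complex IV by its name. A difference between complex I and the others was not tested.

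**Figure D4:**
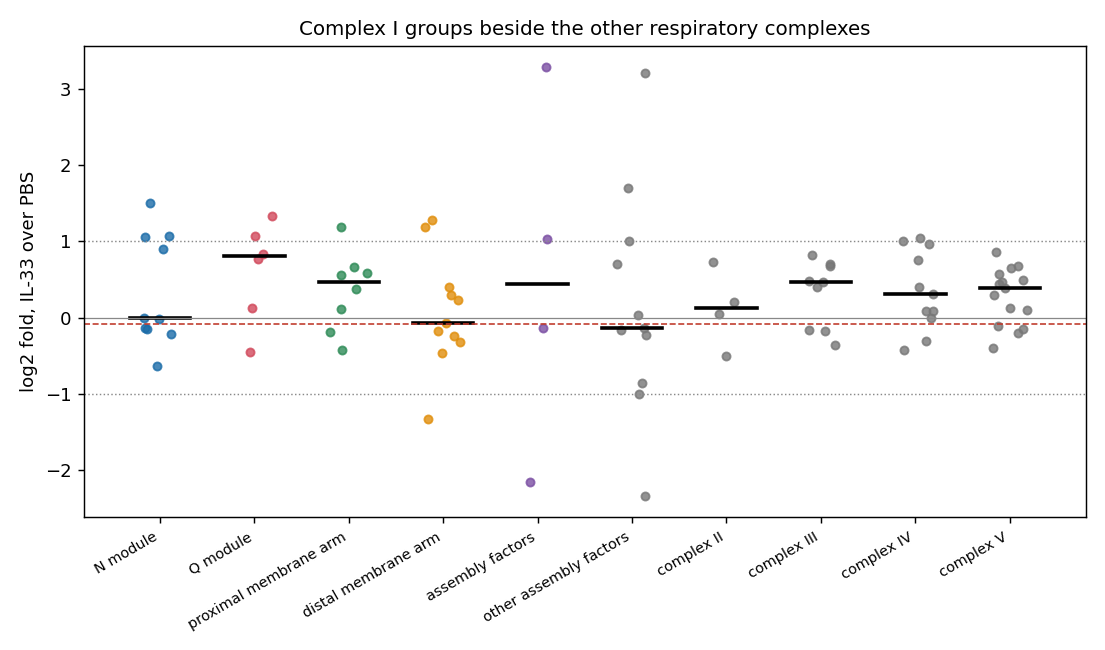
Log2 fold, IL-33 over PBS, of each gene over the floor by structural group of complex I, by assembly factors and by the other respiratory complexes, with group medians as bars, 2-fold as dotted lines and the median of all genes (-0.08) as a dashed line. The Q module has the highest median of the complex I structural groups at 0.80, and the assembly factors span from -2.16 to 3.29.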

How the data were processed

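RNA was measured in 2 libraries, 1 per treatment. The authors deposited whole-number counts per gene symbol, not normalized, 1 column per library; 0 columns were left unused. The genome build was mm10 and the tools included Cufflinks 2.2.1 and TopHat2 2.0.10, per the submitters' processing notes. How reads were counted, on which annotation and with which strand setting is not given in the sources used here. Depth was 4080791 counts after IL-33 and 1573707 counts after PBS, and no molecular identifiers are named, so intervals cover counting error only.

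CPM were computed from the library totals. The log2 fold used CPM plus 1, the floor was 5 CPM in either library, and 2-fold was the threshold. Ratios of CPM carry the exact conditional (Clopper-Pearson) 95% interval. With 1 library per group no test was run; edgeR 4.0.16 and DESeq2 1.42.0 gave scaling factors only, in R 4.3.3. The other steps used Python 3.11.15. Of these, only the fold and its counting interval were checked on simulated counts. Transcript lengths, overlaps and shared 25-base stretches came from GENCODE transcripts of GRCm38, in which 20929 symbols matched directly, 1918 by an older name and 490 did not match. Length is that of 1 representative transcript per gene. Promoters came from RefSeq on GRCm38.p6.

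Values are given in full for the core subunits, except for 1 item that is not reported here, every member at least 2-fold different, the most abundant member of each part by mean CPM, every assembly factor and Ndufa4 with Ndufa4l2. The members and lists were chosen with earlier results of these data known. Alternatives changed the scaling, pseudocount, floor, threshold, length correction and membership.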

Additional observations from a re-analysis of the deposited data

How the results depend on the processing

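Of the values for the subunits and the assembly factors under 13 alternatives, most kept their direction; the values that moved most are these. The summed ratio of the subunits, 1.21 as reported, was 1.32 with TMM factors, 1.31 with DESeq2 size factors, 1.12 after subtracting the median log2 fold of genes of like length and 1.25 without the subunits that share 5% or more of their 25-base stretches. The 8 higher subunits became 13 at 1.5-fold, 17 by the counting interval and 3 without the sharing subunits. The 1 lower subunit became 2 at 1.5-fold, 6 by the interval and 0 without the sharing subunits. Over all genes, 23.5% were higher and 27.4% lower at 1.5-fold. By the interval these shares were 28.6% and 35.1%, and at 2-fold 15.5% and 16.3%. The 2 higher assembly factors became 1 with a pseudocount of 5 CPM, 1 with the length subtraction and 0 at a floor of 20 CPM. That floor leaves Ndufaf2 alone, so their median log2 fold of 0.45 became -2.16 and their summed ratio of 0.986 became 0.197. Adding Ndufaf5, Ndufaf7 and Ndufaf8 turned that median to -0.14 and the summed ratio to 1.21. The calls were then 3 factors higher and 2 lower, against 15.5% and 16.3% of all genes. Without these additions, the summed ratio of the assembly factors was also above 1 with TMM (1.07) and with DESeq2 factors (1.07). The median log2 fold of the subunits, 0.23 as reported, was 0.08 with the length subtraction and 0.39 without the sharing subunits. The addition of older-named factors and the removal of sharing subunits were chosen after seeing the data. Where no construction of the setting shows it, the cause was not tested.

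Of the 12 members called at 2-fold, all 12 were also called with TMM and DESeq2 factors, which added Ndufv3. A pseudocount of 5 CPM lost Ndufa12, Ndufaf3 and Ndufv1, a floor of 20 CPM lost Ndufaf1 and Ndufaf3, and the length subtraction lost Ndufa5 and Ndufaf3. No member called at 2-fold changed sign under these settings. The log2 fold of Ndufa4, 0.34 as reported, was 0.46 with TMM, 0.45 with DESeq2 and 0.18 with the length subtraction. No paired analysis was possible because each group has 1 library, and leaving out a library leaves no comparison. Depth limits the rare genes most, such as Ndufaf1 with 1 count after PBS.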
